A study of Arabidopsis thaliana with 12 samples.

Results

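The Small Auxin Up RNA (*SAUR*) genes form one of the largest groups of early auxin-responsive genes in Arabidopsis. Of the 60 *SAUR* loci listed for the family, 8 could be paired by locus name with a probe set of the Affymetrix ATH1 array, and these 8 are described: *SAUR10* (AT2G18010), *SAUR30* (AT5G53590), *SAUR36* (AT2G45210), *SAUR42* (AT2G28085), *SAUR57* (AT3G53250), *SAUR58* (AT1G43040), *SAUR59* (AT3G60690) and *SAUR70* (AT5G20810). The other 52 loci were not analysed here. *SAUR10*, *SAUR57* and *SAUR58* were paired through the platform annotation and *SAUR36* and *SAUR70* through whole-array tables of the study, whereas *SAUR30*, *SAUR42* and *SAUR59* were paired only through the lists of genes that the study had called changed on these arrays. *SAUR59* stood in its Dex list, *SAUR30* in its Dex+Cyc list and *SAUR42* in both, so the response of these 3 loci to Dex is not independent evidence. Each locus had 1 probe set, and the *SAUR* numbers are those of RefSeq.

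All 12 arrays held RNA from shoot apical meristems (SAMs) of plants about 28 days old that were mutant for *ap1-1* and *cal1-1* and carried *35S::WUS-GR*, so the controls carried the same alleles and the same transgene as the treated plants. The double mutants make many meristems in place of flowers. WUSCHEL (WUS) is the homeodomain transcription factor that keeps the stem cells of the SAM, and its fusion to the glucocorticoid receptor (GR) enters the nucleus when dexamethasone (Dex) is added. The 35S promoter is active in most plant cells, so the fusion was not limited to the cells that normally express *WUS*. The 4 groups of 3 arrays each were treated for 4 h with mock solution, with 10 µM Dex, with 10 µM cycloheximide (Cyc, an inhibitor of protein synthesis), or with 10 µM of both (Dex+Cyc). No Dex-treated plants lacking the fusion were analysed here, and effects of WUS-GR and of Dex itself cannot be told apart. Arrays of a group are numbered in the labels, with nothing said of separate plants. The study's methods state that RNA came from SAMs of many plants for each treatment, without saying how these were split over arrays. The p-values then measure only how far these samples spread, part of which may be technical.

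*SAUR* genes encode small proteins, and many of their transcripts are short-lived. Auxin binding to its receptors leads to the degradation of Aux/IAA repressors, which frees the Auxin Response Factors (ARFs) to activate *SAUR*, *GH3* and *Aux/IAA* genes. Several SAUR proteins inhibit D-clade type 2C protein phosphatases (PP2Cs), which otherwise keep the plasma membrane proton pumps less active, and pump activity acidifies the cell wall and favours cell expansion. In the shoot apex, high auxin response is best known from incipient organs at the flank of the meristem. Early auxin genes have long been known to accumulate transcripts when protein synthesis is blocked.

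Values are MAS5 signals, the brightness of each probe set on a linear scale, so the signal of one locus cannot be set against that of another. A locus passed the test when its adjusted p was under 0.05 in limma, fitted to all 22595 loci and adjusted over all of them by Benjamini-Hochberg. Of these, 14393 had a locus name, and the rest were probe sets without one, each counted as a locus. The median signal of an array lay between 212 and 236, and arrays of a group correlated at 0.937 or above in log2 signal. *CLV3*, a stem cell gene activated by WUS, rose with Dex from 85.9 ± 37.2 to 912 ± 157 (SD, n = 3; log2 fold change 3.48, limma adjusted p = 0.00234), while *WUS* itself had no probe set paired here. *KNAT1*, a homeobox gene of the meristem, fell with Dex by 1.77 on the log2 scale (limma adjusted p = 0.00236). It was paired only through the lists of changed genes, so this fall is not independent evidence. Of the 6 lateral organ markers listed, 5 were paired, none of them at 0 on any array. All 5 had a log2 fold change below 0 with Dex and 4 of them passed the test, where 5.28% of all loci passed in either direction. With Cyc *FIL* (listed as *AFO*) and *YAB3* fell by 1.06 and 0.59 on the log2 scale. *AS2* was higher by 1.12 without overlap of arrays, but did not pass (limma adjusted p = 0.0713). *KAN2* and *KAN1* had log2 fold changes of 0.14 and -0.02, and the median of the 5 was -0.02. Of the 5, 2 were paired only through the lists of changed genes. The study itself reported *KAN1*, *KAN2*, *AS2* and *YAB3* as repressed by WUS with these arrays, and WUS binding at their regulatory regions. Their fall with Dex is therefore not independent evidence. The summed signal of the 5 ranged from 3496 to 4048 in mock, 2132 to 2336 in Dex, 2408 to 2775 in Cyc and 1644 to 1769 in Dex+Cyc. On average *FIL* made up 2136 of it in mock and 1021 in Cyc. The sum is weighted towards bright probe sets and does not measure all 5 markers alike. Their part in the *SAUR* values was not tested, and in whole apices fewer cells of a type and less RNA per cell cannot be told apart.

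The spread of a probe set depended on its brightness. With all loci placed in 5 equal bins by brightness, the median SD between arrays of a group was 1.25 on the log2 scale in the dimmest bin and 0.148 in the brightest. *SAUR10* and *SAUR57* lay in the dimmest bin, *SAUR36*, *SAUR58* and *SAUR70* in the next, *SAUR30* in the middle one, and *SAUR42* and *SAUR59* in the one below the brightest. The resolution of the fit therefore differed widely between the 8 loci, with a residual SD of 0.18 on the log2 scale for *SAUR59* against 1.68 for *SAUR57*.

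**Figure D1:**
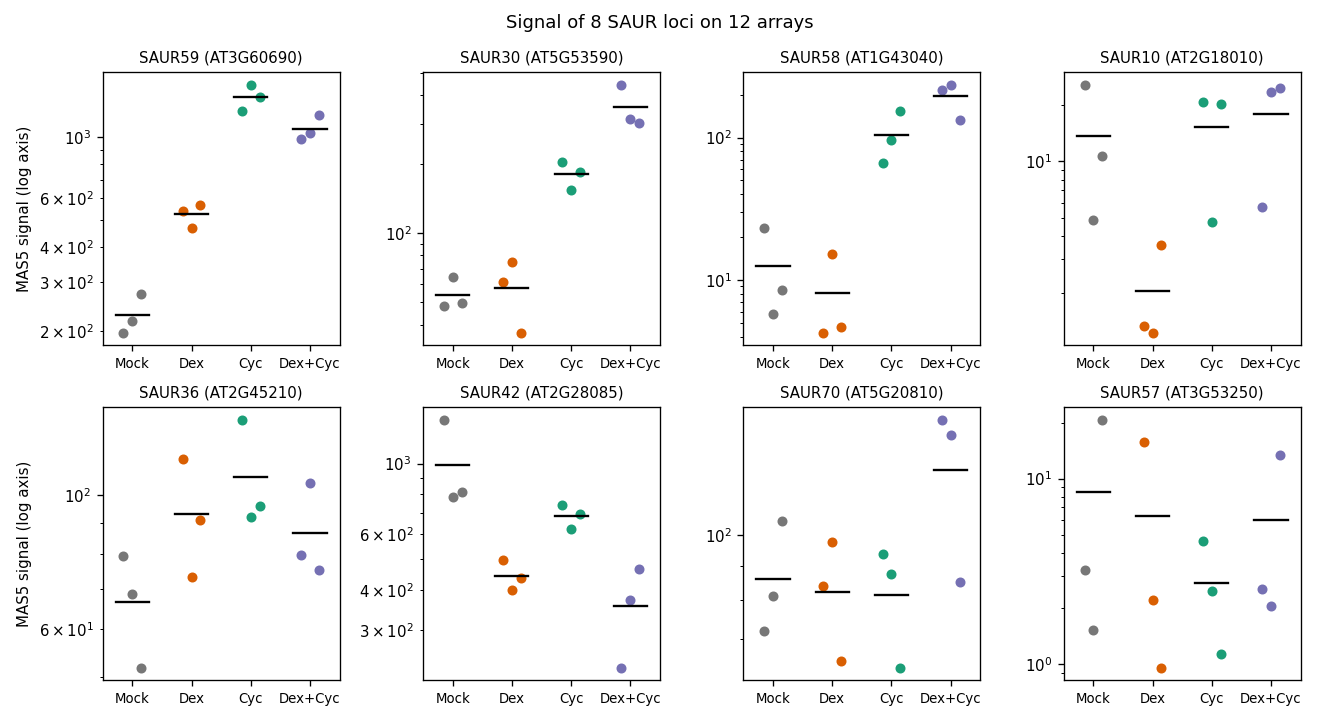
MAS5 signal (log axis, a scale of its own in each panel) of the 8 *SAUR* loci on the 12 arrays; each point is 1 array and each horizontal line is the mean of the 3 arrays of a group. *SAUR59* shows 4 groups without overlap, from 197 to 272 in mock up to 1243 to 1539 in Cyc, while the groups of *SAUR57* overlap throughout.

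The first question was which *SAUR* loci changed when WUS-GR was activated with protein synthesis intact. Of the 8 loci, 1 passed the test in Dex versus mock (12.5%), beside 5.28% of all loci tested. It was *SAUR59*, which was higher with Dex, and none was lower; it also met the thresholds of the study's own methods, an adjusted p under 0.01 with at least a 2-fold change. *SAUR59* is one of the 3 loci paired through the lists of changed genes, and none of the 5 loci paired in other ways passed. The median log2 fold change of the 8 loci was -0.30, beside -0.01 over all loci, and -0.06 with 32 added to the signals before the logarithm, which shrinks the values of dim loci.

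*SAUR59* read 197, 217 and 272 on the mock arrays. With Dex it read 540, 469 and 567. All Dex arrays lay above all mock arrays, and the group means were 228 ± 39.0 and 525 ± 50.7 (SD, n = 3). The log2 fold change was 1.21 (SE 0.15, limma adjusted p = 0.00302), a 2.31-fold rise.

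*SAUR42* had the opposite direction. Its signal was 1373, 785 and 812 in mock and 497, 401 and 437 in Dex. The highest Dex array was below the lowest mock array, but the mock arrays were spread widely, with 1 of them far above the other 2. The log2 fold change was -1.11 (SE 0.28), and its adjusted p of 0.0556 in limma missed the threshold. It passed without Dex+Cyc replicate 1 (adjusted p = 0.0299) and without Dex+Cyc replicate 3 (0.0496), both of which enter the comparison only through the shared estimate of spread, and did not pass in the other 10 fits that left out 1 array (adjusted p up to 0.153) or in the fit of the 6 mock and Dex arrays alone (0.127).

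*SAUR10*, which is known to respond to auxin and brassinosteroid and to be repressed by the MADS-domain protein FRUITFULL in stems, also had separate groups in this comparison. It read 25.6, 4.85 and 10.7 in mock and 1.32, 1.22 and 3.57 in Dex, so every Dex array was lower than every mock array, at signals where the spread is largest. The log2 fold change was -2.62 (SE 0.86, limma adjusted p = 0.125), and -0.40 with 32 added to the signals (0.316). In all, 3 of the 8 loci (37.5%) had arrays that did not overlap between Dex and mock, beside 25.4% of all loci. *SAUR59* lay above and *SAUR42* and *SAUR10* below. *SAUR59* and *SAUR42* were paired only through the lists of changed genes, so their separation is not independent evidence.

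For the other 5 loci the arrays of both groups overlapped. *SAUR36*, also known as *SAG201* and as a promoter of leaf senescence, had a log2 fold change of 0.48 with a 95% interval from -0.05 to 1.01. *SAUR30* had 0.04 (-0.56 to 0.64) and *SAUR70* -0.07 (-0.66 to 0.53). These intervals bound any change of *SAUR30* and *SAUR70* to at most 0.66 in size on the log2 scale, and leave room for a rise of up to 1.01 for *SAUR36*. The intervals of *SAUR58* (-2.04 to 0.77) and *SAUR57* (-3.40 to 2.32) held both 0 and a 4-fold decrease.

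**Figure D2:**
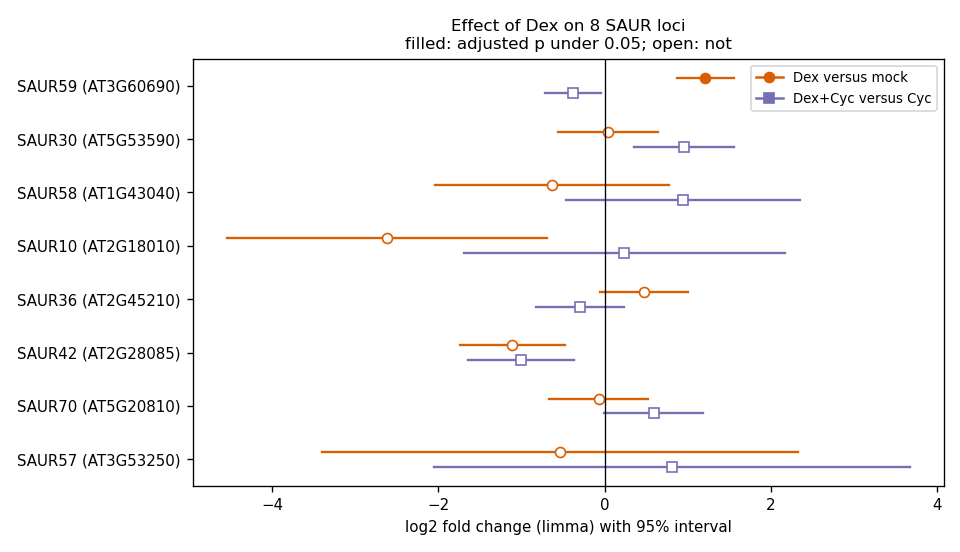
Log2 fold change of the 8 *SAUR* loci with Dex in the absence (circles) and presence (squares) of Cyc, with 95% intervals from limma; filled symbols had an adjusted p under 0.05. The only filled symbol is *SAUR59* in Dex versus mock at 1.21, and *SAUR42* lies at about the same place in both comparisons (-1.11 and -1.004).

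The second question was whether the loci changed with Dex when new protein could not be made. In Dex+Cyc versus Cyc none of the 8 loci passed the test, beside 1.58% of all loci. At an unadjusted p under 0.05 the comparison held 3108 of all loci. The arrays did not overlap at 3 loci (37.5%), *SAUR30* above and *SAUR42* and *SAUR59* below, beside 21.1% of all loci, and all 3 are loci paired through the lists of changed genes. The median log2 fold change of the 8 loci was 0.41, beside 0.03 over all loci, and 0.096 with 32 added to the signals.

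*SAUR42* read 742, 623 and 693 in Cyc and 229, 373 and 466 in Dex+Cyc. All Dex+Cyc arrays were below all Cyc arrays. The log2 fold change of -1.004 (SE 0.28, limma adjusted p = 0.134) differed little from that without Cyc, and the difference between both was 0.11 with a 95% interval from -0.79 to 1.00. The mean of both Dex effects, a contrast chosen after these values were seen, was -1.06 (SE 0.20, limma adjusted p = 0.0120). Since *SAUR42* was paired through both lists of changed genes, this value is a description and no independent support. Of the 8 loci, 2 passed in this contrast, beside 8.36% of all loci, and the other was *SAUR59* (0.41, adjusted p = 0.0448), whose 2 Dex effects were opposite in sign.

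*SAUR30* read 204, 155 and 185 in Cyc and 443, 314 and 302 in Dex+Cyc. The Dex+Cyc arrays were all higher, by 0.95 on the log2 scale (SE 0.27, limma adjusted p = 0.134), while without Cyc its mock and Dex arrays overlapped at 48.1, 64.2 and 49.7 against 61.1, 74.7 and 36.8. The difference between both Dex effects was 0.91 (95% interval 0.06 to 1.76, adjusted p = 0.579) and did not pass.

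*SAUR59* took the reverse course to its course without Cyc. It read 1243, 1539 and 1395 in Cyc and 980, 1033 and 1194 in Dex+Cyc, so the Dex+Cyc arrays were all lower than the Cyc arrays, by a log2 fold change of -0.38 (SE 0.15) that missed the threshold at a limma adjusted p of 0.302. *SAUR70* read 93.7, 87.4 and 63.4 in Cyc and 148, 141 and 85.0 in Dex+Cyc, with 1 Dex+Cyc array inside the Cyc range (log2 fold change 0.59, adjusted p = 0.368).

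The test of the difference itself, the Dex effect with Cyc minus the Dex effect without it, was passed by none of the 8 loci and by 0.0266% of all loci, which is 6 loci; 1864 of all loci had an unadjusted p under 0.05. *SAUR59* came nearest among the 8, at -1.59 (SE 0.21, 95% interval -2.07 to -1.11, limma adjusted p = 0.0808), which is a 3.01-fold lower ratio of Dex-treated to untreated with Cyc than without. The adjusted p ranged from 0.00162 to 0.183 over the alternatives tried and was below the threshold in 5 of them. Its arrays were apart in opposite directions in the 2 Dex comparisons, which held for 0.730% of all loci. Because *SAUR59* was paired through the Dex list, its higher value in Dex versus mock was part of how it came to be measured here.

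For the other loci the difference was less sharply estimated. *SAUR10* (2.85, 95% interval 0.13 to 5.58) and *SAUR36* (-0.78, -1.53 to -0.03) had intervals that did not reach 0, yet their adjusted p-values were 0.586 and 0.587 in limma. *SAUR58*, *SAUR57* and *SAUR70* had intervals that held 0.

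The response to Cyc alone was larger than that to Dex across the array. In Cyc versus mock 4 of the 8 *SAUR* loci passed the test (50.0%), beside 41.0% of all loci, so the share that passed was close to the background. All 4 were higher with Cyc: *SAUR58*, *SAUR59*, *SAUR30* and *SAUR36*; 14.6% of all loci passed in that direction, and the median over all loci was -0.18 on the log2 scale against 0.44 for the 8. Of the 4, *SAUR58* and *SAUR36* had been paired independently of the study's lists, and 3 met the study's thresholds. Arrays did not overlap at 5 loci (62.5%), beside 50.0% of all loci. With 32 added to the signals the median log2 fold change of the 8 was 0.27, beside -0.11 over all loci.

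*SAUR58* had the largest fitted change among the 8. It was dim in mock (23.1, 5.72 and 8.55) and read 66.0, 95.5 and 153 in Cyc. The lowest Cyc array was above the highest mock array, and the log2 fold change was 3.24 (SE 0.62, limma adjusted p = 0.00243). The size of this change rests on mock signals in the range of large spread, and its 95% interval ran from 1.84 to 4.65. With 32 added to the signals the change was 1.59 on the log2 scale (adjusted p = 0.000259).

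*SAUR59* rose from 228 ± 39.0 in mock to 1393 ± 148 in Cyc (SD, n = 3), 6.13-fold in the fit (log2 fold change 2.62, SE 0.15, limma adjusted p = 1.29e-06). Its level in Cyc was also above that in Dex without overlap, so that the order of the group means was mock, Dex, Dex+Cyc and Cyc, with neighbours a factor of 2.30, 2.04 and 1.30 apart. *SAUR30* rose from 54.0 ± 8.82 to 181 ± 25.1 (log2 fold change 1.75, SE 0.27, adjusted p = 0.000655), with no overlap between arrays.

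*SAUR36* read 79.2, 68.7 and 51.9 in mock and 133, 91.9 and 96.0 in Cyc. Each Cyc array was above each mock array, and the log2 fold change was 0.69 (SE 0.24, limma adjusted p = 0.0415). This call was the least stable of the 4: it was lost with quantile normalization (adjusted p = 0.114), and it was lost in 8 of the 12 fits that left out 1 array, namely any Cyc array, Mock replicate 2 or 3, Dex replicate 3, or Dex+Cyc replicate 1 or 3, with an adjusted p of up to 0.142.

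The remaining 4 loci did not pass. *SAUR42* was lower on all Cyc arrays than on all mock arrays, by a log2 fold change of -0.48 (95% interval -1.12 to 0.15, limma adjusted p = 0.213). *SAUR10* (20.7, 4.77 and 20.3 in Cyc), *SAUR57* (4.61, 2.49 and 1.14) and *SAUR70* overlapped with mock.

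**Figure D3:**
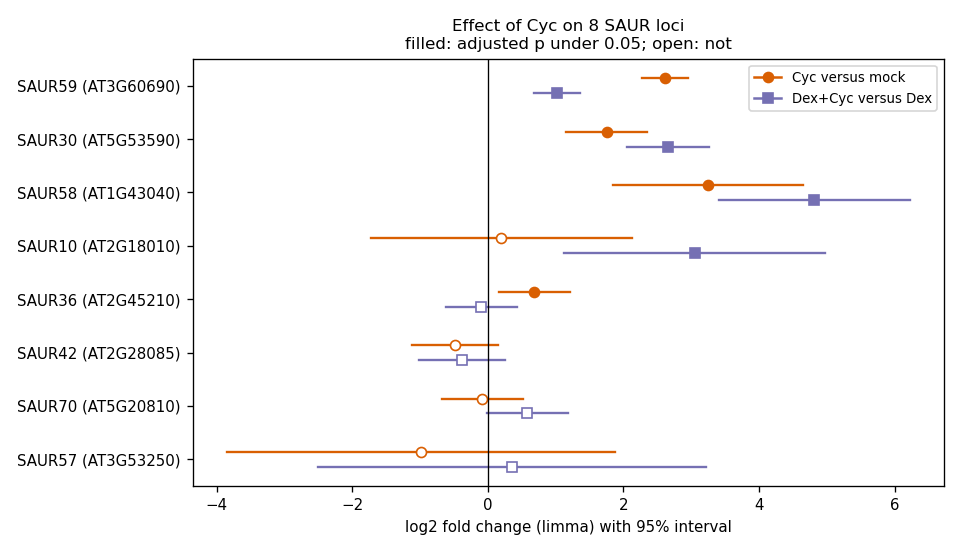
Log2 fold change of the 8 *SAUR* loci with Cyc in the absence (circles) and presence (squares) of Dex, with 95% intervals from limma; filled symbols had an adjusted p under 0.05. *SAUR58*, *SAUR59* and *SAUR30* are filled and above 0 in both comparisons, *SAUR36* only without Dex and *SAUR10* only with Dex.

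Dex+Cyc versus Dex measured the effect of Cyc while WUS-GR was active. Its fold changes came from 6 arrays that give no group mean in Cyc versus mock. Both tests shared the estimate of spread from all arrays, so their calls are not independent of each other. Again 4 of the 8 *SAUR* loci passed (50.0%), beside 39.8% of all loci, and all 4 were higher with Cyc, beside 15.1% of all loci in that direction. *SAUR58*, *SAUR59* and *SAUR30* passed here as they did without Dex, and *SAUR10* took the place of *SAUR36*. Of the 5 loci paired independently of the study's lists 2 passed, *SAUR58* and *SAUR10*. *SAUR59* and *SAUR30* were paired only through those lists, *SAUR30* through the Dex+Cyc list, which rests on the same Dex+Cyc arrays. Arrays did not overlap at these 4 loci (50.0%), beside 52.2% of all loci. The median log2 fold change of the 8 was 0.80 against -0.15 over all loci, and 0.48 against -0.08 with 32 added to the signals.

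*SAUR58* read 4.25, 15.2 and 4.69 in Dex and 217, 235 and 133 in Dex+Cyc. All Dex+Cyc arrays lay far above all Dex arrays (log2 fold change 4.82, SE 0.62, limma adjusted p = 0.000264). *SAUR30* rose from 57.5 ± 19.2 to 353 ± 78.0 (SD, n = 3), 6.30-fold in the fit (log2 fold change 2.66, SE 0.27, adjusted p = 5.73e-05), and its 4 groups fell into a lower pair, mock and Dex, and a higher pair in which Dex+Cyc was above Cyc without overlap. *SAUR59* rose from 525 ± 50.7 to 1069 ± 112, a log2 fold change of 1.03 (SE 0.15, adjusted p = 0.000564).

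*SAUR10* read 5.68, 23.5 and 24.5 in Dex+Cyc, above the 3 Dex arrays, with a log2 fold change of 3.05 (SE 0.86, limma adjusted p = 0.0181). The call was lost when 32 was added to the signals before the logarithm (log2 fold change 0.53, adjusted p = 0.0580) and without Dex replicate 1, Dex replicate 2, Dex+Cyc replicate 2 or Dex+Cyc replicate 3 (adjusted p up to 0.0636). On all arrays of all groups its signal was below 26.

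*SAUR36* read 114, 73.2 and 91.0 in Dex and 79.6, 105 and 75.3 in Dex+Cyc. These groups overlapped fully, with a log2 fold change of -0.09 (95% interval -0.62 to 0.44). *SAUR70* was 0.58 on the log2 scale higher in the mean (limma adjusted p = 0.115), and passed only without Dex+Cyc replicate 3 (0.0270), its lowest array in that group. *SAUR42* (-0.38, 95% interval -1.01 to 0.26, adjusted p = 0.338) did not pass.

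*SAUR57* passed in no comparison and differed without overlap in none. Its highest reading in mock was 20.8 and its lowest 1.53, and in Dex the arrays read 15.8, 2.23 and 0.958. With a standard error of 1.27 on the log2 scale, a 4-fold change of this locus was not detectable with 3 arrays a group.

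*SAUR59* passed in 3 of the 4 comparisons between pairs of groups, *SAUR30* and *SAUR58* in the 2 with and without Cyc, *SAUR36* and *SAUR10* in 1 each, and *SAUR42*, *SAUR57* and *SAUR70* in none.

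The other early auxin genes were described by lists of the pathway. Of 28 *Aux/IAA* genes, which encode the repressors, 14 were paired, 5 of them only through the lists of changed genes. In Dex versus mock 2 passed higher and 3 lower, and in Dex+Cyc versus Cyc 2 higher and 2 lower, beside 5.28% and 1.58% of all loci in either direction. *IAA27* (AT4G29080) rose from 1357 ± 40.5 to 3004 ± 290 with Dex (log2 fold change 1.14, limma adjusted p = 0.00685) and again in the presence of Cyc (1.26, adjusted p = 0.0132). *IAA3* (*SHY2*) rose by 0.96 and 0.78 in these comparisons (adjusted p = 0.00985 and 0.0481), the second of which was lost with quantile normalization (0.0690) and with median centring (0.0673), while *IAA4* fell by 1.23 and by 0.75 (0.00220 and 0.0330). *IAA17* (*AXR3*) fell by 1.19 with Dex alone (adjusted p = 0.00254) and had a log2 fold change of -0.35 in Cyc (0.323). These 4 genes were paired only through the lists of changed genes, as was *IAA16*, which also passed in Dex+Cyc versus Cyc. Among the *Aux/IAA* genes that passed in either Dex comparison, only *IAA18* (Dex versus mock, limma adjusted p = 0.0417) was paired in another way. The counts of *Aux/IAA* genes that passed with Dex are therefore not independent evidence.

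In Cyc versus mock 7 of the 14 *Aux/IAA* genes passed higher and 2 lower, and in Dex+Cyc versus Dex 9 higher and 1 lower, with medians of 0.43 and 1.39 on the log2 scale. Of all loci 14.6% and 15.1% passed higher in these comparisons, and 41.0% and 39.8% in either direction. *IAA3* rose from 34.6 ± 7.82 in mock to 652 ± 56.1 in Cyc (log2 fold change 4.26, limma adjusted p = 1.35e-07), whereas *IAA27* fell by 0.81 (adjusted p = 0.00418).

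*GH3* genes encode enzymes that conjugate auxin and related hormones to amino acids, and 6 of 9 were paired. With Dex 1 passed higher and 1 lower: *GH3.5* (*WES1*) rose by 0.96 on the log2 scale (limma adjusted p = 0.0106) and *GH3.6* (*DFL1*), paired through the lists of changed genes, fell by 1.44 (0.00673). None passed in Dex+Cyc versus Cyc. Of all loci 5.28% passed in Dex versus mock and 1.58% in Dex+Cyc versus Cyc. With Cyc 3 passed higher and 1 lower without Dex, and 4 higher and 1 lower with Dex, beside the same shares of all loci as for the *Aux/IAA* genes. *GH3.3* rose from 466 ± 62.7 in mock to 9809 ± 1848 in Cyc (log2 fold change 4.39, adjusted p = 5.52e-07), and *GH3.17* fell by 0.83 (0.00138). *GH3.1*, named after its values were seen, had the largest fitted change of the list: its mock arrays lay between 2.91 and 4.57 and its Cyc arrays between 3535 and 4285.

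Of the 15 *ARF* genes listed, only *ARF4* and *ARF7* (*NPH4*) were paired. *ARF4*, paired through the lists of changed genes, fell in all 4 comparisons between pairs of groups, from 1129 ± 27.8 in mock to 630 ± 70.5 in Dex, 570 ± 39.9 in Cyc and 380 ± 38.6 in Dex+Cyc (limma adjusted p from 0.000133 to 0.0427). *ARF7* passed in none of them, with log2 fold changes from -0.29 to -0.10. No gene of the lists of auxin receptors, auxin transport or plasma membrane proton pumps was paired.

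Downstream of the SAUR proteins, 4 of the 9 D-clade *PP2C* genes were paired. None passed in either Dex comparison, beside 5.28% and 1.58% of all loci. With Cyc, AT3G55050 rose from 652 ± 36.1 to 1267 ± 196 (log2 fold change 0.95, limma adjusted p = 0.000208) and AT3G12620 rose by 0.59 (0.00156), while AT3G51370 fell by 0.53 (0.0221) and AT3G17090 had -0.04 (0.819). In Dex+Cyc versus Dex the first 2 of these passed again, while AT3G12620 did not with the arrays centred on their medians (adjusted p = 0.0698). Of all loci 41.0% passed in Cyc versus mock and 39.8% in Dex+Cyc versus Dex, in either direction.

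Alpha expansins loosen the cell wall at low pH, and 4 of 9 were paired. *EXPA6*, paired through the lists of changed genes, fell with Dex from 4585 ± 169 to 2551 ± 488 (log2 fold change -0.86, limma adjusted p = 0.0108) and had 0.01 in Dex+Cyc versus Cyc (0.992). *EXPA4*, *EXPA8* and *EXPA15* did not pass with Dex. *EXPA4* rose with Cyc by 0.91 (adjusted p = 0.0202), and 3 of the 4, *EXPA4*, *EXPA6* and *EXPA15*, were higher in Dex+Cyc than in Dex.

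**Figure D4:**
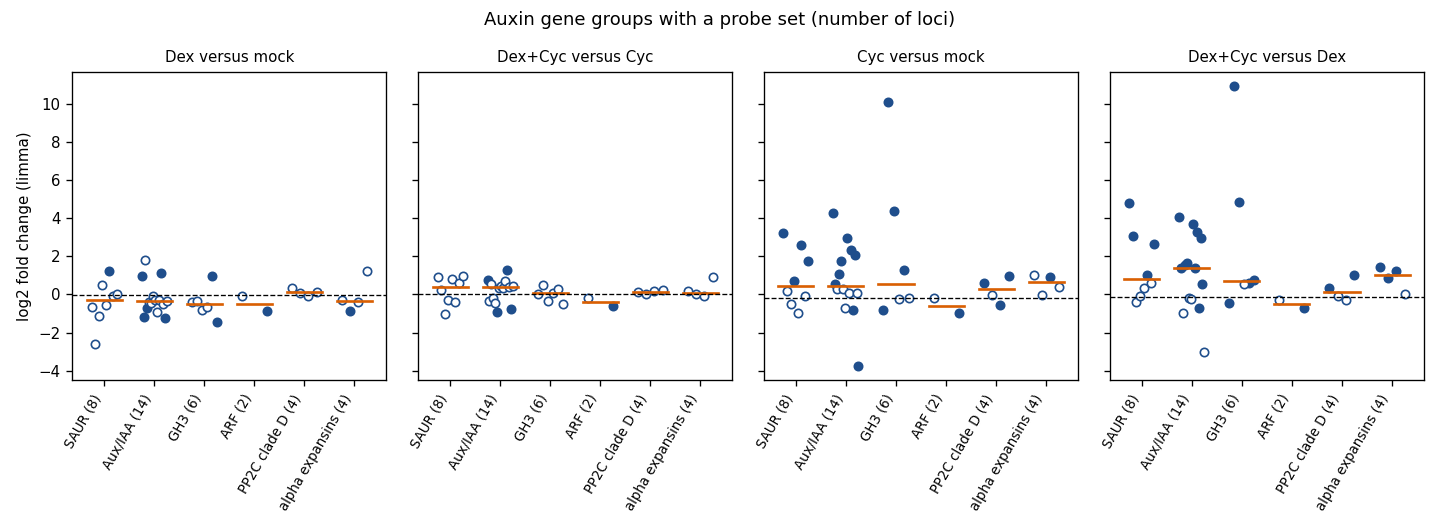
Log2 fold changes (limma) of the paired loci of 6 auxin gene groups in the 4 comparisons between pairs of groups; filled points had an adjusted p under 0.05, orange bars are the median of a group, and the dashed line is the median of all loci. In Cyc versus mock and Dex+Cyc versus Dex the medians of all groups but *ARF* lie above the dashed lines (-0.18 and -0.15). They are 0.44 and 0.80 for *SAUR*, 0.43 and 1.39 for *Aux/IAA* and 0.55 and 0.69 for *GH3*. For alpha expansins they are 0.64 and 1.05, for the *PP2C* genes 0.28 and 0.13, and for *ARF* -0.60 and -0.51. The medians include loci paired only through the lists of changed genes: 3 *SAUR*, 5 *Aux/IAA*, 1 *GH3*, 1 *ARF* and 1 expansin. They are not free of that selection.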

How the data were processed

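The deposited values were intensities from 12 ATH1 arrays, 1 MAS5 signal for each probe set, not log-transformed. The authors scaled each array to a mean of 500 after trimming 2% of values at each end, and MAS5 and affy are named, without versions, in the submitters' processing notes. Of 22810 probe sets, 64 controls were left out. Loci came from the platform table (13513 probe sets with 1 gene symbol, 503 with several, which were not named, and 8730 absent) and from tables of the study. The probe set with the highest mean was kept per locus. This left 14393 loci with a locus name, 420 of them named only through lists of changed genes. Probe sets without a locus name were each kept and counted as a locus, which gave 22595 in all. AGI loci were matched to RefSeq for *SAUR* numbers. No sequences were used here.

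Log2 signals, with no value added and no filter, were fitted with 4 group means in limma 3.58.1 (R 4.3.3; eBayes with 1.34 prior degrees of freedom), tested on simulated data first. The 5 contrasts were those of the report. The study's own test used another summary of the arrays, which was not analysed here. Alternatives covered scaling, an added value of 32, dim loci, a replicate block, variance models, all probe sets and each array left out. Arrays have no read depth, and their number limits the precision. Full values were given for members that passed a Dex comparison, for up to 6 per direction in each Cyc comparison and for the 3 brightest, and up to 4 genes of each other list were named by their adjusted p with Dex. The members and lists were chosen with earlier results of these data known.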

Additional observations from a re-analysis of the deposited data

Results flagged for a closer look

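*SAUR59* (AT3G60690) stood out because its arrays moved in opposite directions with Dex depending on Cyc: all 3 Dex arrays were above all mock arrays, and all 3 Dex+Cyc arrays were below all Cyc arrays. The difference between both Dex effects was -1.59 on the log2 scale and missed the threshold in limma (adjusted p = 0.0808, with a range from 0.00162 to 0.183 over the alternatives). Groups of 3 arrays were not tested for single outlying arrays.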

How the results depend on the processing

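All 5 counts of *SAUR* loci passing the test kept their main value with a replicate block. These values were 1, 0, 4, 4 and 0 for Dex versus mock, Dex+Cyc versus Cyc, Cyc versus mock, Dex+Cyc versus Dex and the difference. The main fit did not take the numbers as pairs. Deviations of same-numbered arrays correlated at a median of 0.041 (-0.088 to 0.254), and those of other numbers at -0.021 (-0.231 to 0.182). They exceeded 0.1 in 3 of 18 and 3 of 36 pairs. Between Cyc and Dex+Cyc, arrays numbered 1, 2 and 3 correlated with their same-numbered array at 0.254, 0.210 and 0.025. These values cannot decide whether the numbers mark pairs. With 32 added before the logarithm the counts in Dex versus mock, Dex+Cyc versus Cyc and the difference were 2, 1 and 1. The same 3 counts were 2, 1 and 1 with a variance trend and robust shrinkage, and 2, 2 and 1 without the dimmest 40% of loci, where both Cyc comparisons gave 2 because only 3 of the 8 loci remained. Median centring gave 1 locus in the difference. With 1 array left out the counts ranged from 1 to 2 in Dex versus mock, 3 to 4 in both Cyc comparisons and 0 to 1 in the difference, and stayed at 0 in Dex+Cyc versus Cyc.

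The locus gained in Dex versus mock was *SAUR42* (adjusted p = 0.0222, 0.00885 and 0.0108 under these 3 settings, but 0.104 with the replicate block), and that gained in the difference was *SAUR59* (0.0495 with median centring, 0.0449 without Mock replicate 3). In Dex+Cyc versus Cyc *SAUR30* passed with 32 added (0.0311), *SAUR42* with the variance trend (0.0302), and both without the dim loci (0.0338 and 0.0334). Beside quantile normalization, *SAUR36* lost its call in Cyc versus mock with only the 6 arrays of the comparison (0.0782) and with the variance trend (0.0642).

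Only values that had not passed changed sign. With 32 added, *SAUR57* in Dex+Cyc versus Dex was -0.0038 on the log2 scale. With 1 array left out, Dex versus mock ranged from -1.68 to 0.54 for *SAUR57*, -0.20 to 0.092 for *SAUR70* and -0.18 to 0.34 for *SAUR30*. Dex+Cyc versus Cyc ranged from -0.47 to 0.93 for *SAUR10* and -0.044 to 1.31 for *SAUR57*. Cyc versus mock ranged from -0.39 to 0.90 for *SAUR10*, -1.80 to 0.086 for *SAUR57* and -0.20 to 0.091 for *SAUR70*. Dex+Cyc versus Dex ranged from -0.25 to 0.069 for *SAUR36* and -0.52 to 1.5 for *SAUR57*. The difference for *SAUR42* ranged from -0.15 to 0.40. The cause of these changes was not tested. The replicate block also ended the calls of *IAA3* (0.103), *IAA4* (0.0798), *ARF4* (0.0965) and *KAN2* (0.0611) in Dex+Cyc versus Cyc, and left 2 of the 4 calls of lateral organ markers in Dex versus mock, without *FIL* (0.0751) and *KAN1* (0.0729). Over all loci the number with an adjusted p under 0.05 ranged from 292 (only the 6 arrays of the comparison) to 1998 (without the dimmest 40%) in Dex versus mock, beside 1193, and from 2 to 863 under the same settings in Dex+Cyc versus Cyc, beside 358. The study's thresholds gave 267 and 24.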
